A study of Homo sapiens with 6 samples.

Results

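Described here are 8 human chemokine genes in the established melanoma line LOX-IMVI, with and without knockdown of NFKBIZ. CXCL1, CXCL2, CXCL3, CXCL5, CXCL6, CXCL8 and PPBP encode CXC chemokines that attract neutrophils, and CCL20 encodes a CC chemokine that attracts cells bearing the receptor CCR6. The genes were chosen by name, as the neutrophil-attracting CXC chemokines of the chromosome 4 cluster together with CCL20, and they were 8 of the 47432 genes listed in every library. The study asked what the constitutive expression of IκBζ, the nuclear co-regulator encoded by NFKBIZ, does in melanoma cells. Both groups were LOX-IMVI cells that carried a pLKO.1 lentiviral short hairpin RNA (shRNA) construct and had been selected with puromycin, and the labels name no stimulus. One group carried a control construct (shCtrl) and the other a construct directed at NFKBIZ (shNFKBIZ). A single hairpin against NFKBIZ was used, so in these libraries an effect of IκBζ and an effect of that hairpin on other transcripts cannot be told apart. The paper also reports a knockout in mouse melanoma cells and overexpression of IκBζ in other melanoma lines, which are not described here. There were 3 libraries per group, which the study's methods describe as independent experiments. Gene expression was measured by RNA-seq of total RNA, and reads were counted separately over annotated exons and introns.

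CXC chemokines of this kind carry the ELR motif and act through CXCR1 and CXCR2 on neutrophils. Their genes lie in a cluster on chromosome 4, together with that of platelet basic protein (PPBP). Apart from PPBP, they are induced by IL-1, TNF and IL-17 through NF-κB. IκBζ is itself an NF-κB target, binds NF-κB subunits in the nucleus and is known to be needed for a subset of secondary NF-κB target genes. Their mRNAs are short-lived, with AU-rich elements in the 3′ ends, and proteins such as tristetraprolin and Regnase-1 shorten their lives further. CXCL8 is also known as a product of melanoma cells. Exon reads mostly come from mature mRNA, whereas intron reads mostly come from unspliced RNA.

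On hg38, the 7 CXC genes spanned 359 kb of chromosome 4, from 73740519 to 74099196. From the lower coordinate upward the order was CXCL8, CXCL6 and CXCL1 on the plus strand, then PPBP, CXCL5, CXCL3 and CXCL2 on the minus strand. CCL20 lay alone on chromosome 2, from 227805739 to 227817564 on the plus strand. RefSeq promoters (GRCh38.p14, 250 bases before to 50 bases after the start) were found for all 8 genes and searched on both strands for letters of NF-κB sites. GGAATTTCC occurred in 162 of 35116 promoters, or 0.461%, and in 6 of the 8 chemokine promoters, with PPBP and CCL20 as the exceptions. The motifs were chosen after seeing the data, and several of these promoters resemble one another, so the counts are a description only. GGGNNTTTCC occurred in 1.91% of promoters, and the CCL20 promoter held it on the minus strand. It overlapped the first motif in CXCL1, CXCL2, CXCL3, CXCL5 and CXCL6. PPBP held neither, and CXCL8 held the first motif but not the second. The 40 bases around each match are shown so that the 7 promoters with 1 or both motifs can be compared. Sequences run 5′ to 3′ on the gene's own strand, and capitals mark the match.

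CXCL8 (chr4:73740462-73740501): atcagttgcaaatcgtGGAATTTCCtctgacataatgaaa
CXCL1 (chr4:73869299-73869338): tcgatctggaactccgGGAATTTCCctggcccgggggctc
CXCL2 (chr4:74099249-74099288): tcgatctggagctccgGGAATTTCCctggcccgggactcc
CXCL3 (chr4:74038744-74038783): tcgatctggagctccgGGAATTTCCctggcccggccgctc
CXCL5 (chr4:73998744-73998783): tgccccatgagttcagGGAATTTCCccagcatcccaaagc
CXCL6 (chr4:73836573-73836612): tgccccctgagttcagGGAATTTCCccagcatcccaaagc
CCL20 (chr2:227813748-227813787): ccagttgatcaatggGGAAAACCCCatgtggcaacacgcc

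The flanks fell into families. CXCL1, CXCL2 and CXCL3 shared nearly all letters before the match, and CXCL5 and CXCL6 shared theirs. Over the whole promoter, CXCL1 and CXCL3 were identical in 82.5% of aligned columns, CXCL1 and CXCL2 in 71.9%, CXCL2 and CXCL3 in 73.8%, and CXCL5 and CXCL6 in 83.1%. The CXCL8 and CCL20 promoters matched in 52.0% of aligned columns. Counted from the transcription start, the CXCL8 match lay at -91 to -83 and the CCL20 match at -79 to -70. TGANTCA, the letters of an AP-1 site, occurred in 7.71% of all promoters and, of the 8 genes, in the CXCL8 promoter. TTCNNNGAA, the letters of a STAT site, occurred in 7.66% of promoters and in CXCL5 and CXCL6, where it overlapped GGAATTTCC. The full promoters of CXCL8 and CCL20 are given because these genes, on different chromosomes, had the lowest exon log2 fold changes of the 5 genes that could be tested. Capitals mark the AP-1 and NF-κB letters in CXCL8 and the NF-κB letters in CCL20.

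CXCL8 (chr4:73740319-73740618, plus strand): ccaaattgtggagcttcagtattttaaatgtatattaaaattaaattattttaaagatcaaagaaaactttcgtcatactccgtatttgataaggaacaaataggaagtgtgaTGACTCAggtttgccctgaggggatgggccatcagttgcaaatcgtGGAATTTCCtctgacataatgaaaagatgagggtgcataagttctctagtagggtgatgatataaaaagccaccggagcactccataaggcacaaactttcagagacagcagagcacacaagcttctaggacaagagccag
CCL20 (chr2:227813592-227813891, plus strand): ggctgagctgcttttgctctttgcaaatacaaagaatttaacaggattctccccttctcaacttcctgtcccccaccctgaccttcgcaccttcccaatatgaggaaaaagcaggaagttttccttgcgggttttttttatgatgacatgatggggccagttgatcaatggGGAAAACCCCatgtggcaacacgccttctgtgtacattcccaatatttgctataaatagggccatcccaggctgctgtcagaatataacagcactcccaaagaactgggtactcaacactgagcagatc

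The libraries held 22264473 to 24624839 exon reads, and intron reads made up 7.16% to 7.46% of gene reads in shCtrl and 7.63% to 8.15% in shNFKBIZ. NFKBIZ, the target, ranged from 1519 to 1674 exon reads in shCtrl and from 468 to 477 in shNFKBIZ (exon log2 fold change -1.78, SE 0.0581, adjusted p = 7.2e-17). The library labels and the targeted gene therefore went the same way. NFKBIZ intron reads were lower too (intron log2 fold change -1.11, SE 0.0983, adjusted p = 9.83e-12). Of 7 markers of the pigmented melanoma state, MLANA, SOX10 and S100B were at 0 reads and only MITF reached a mean of 1 TPM. The 7 summed to 3.06 to 4.10 TPM in shCtrl and 1.79 to 2.44 TPM in shNFKBIZ. Of 5 markers of the dedifferentiated state, 4 were at 1 TPM or more. The 5 summed to 587 to 624 TPM in shCtrl and 662 to 677 TPM in shNFKBIZ. Summed leukocyte markers reached at most 0.552 TPM (7 genes, with FCGR3B, MS4A1 and CD3E at 0 reads) and platelet markers at most 0.636 TPM (4 genes, with PF4 and GP9 at 0 reads). The summed level of 5 fibroblast markers, mostly COL1A1, was 30.3 to 33.2 TPM in shCtrl and 7.88 to 10.4 TPM in shNFKBIZ, and that of 4 keratinocyte markers, of which KRT14 reached 1 TPM, was 0.339 to 0.783 TPM against 1.45 to 1.88 TPM. The part of these marker differences in the results was not tested.

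Exon reads of CXCL8, CXCL1, CXCL2, CXCL3 and CCL20 were all lower after NFKBIZ knockdown, by 2.34-fold to 5.13-fold. Only these 5 of the 8 genes passed the filter on low counts, and all 5 were called lower (adjusted p of at most 0.05 and at least a 2-fold change). Of the 13843 genes tested, 709 were called lower, or 5.12%. The 3 libraries of shNFKBIZ lay below the 3 of shCtrl in exon reads per library size (CPM) for each of the 5, as they did for 34.6% of all genes tested. In bulk RNA, fewer cells that express a gene and less RNA per cell cannot be told apart.

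CXCL8 encodes interleukin-8, the best known neutrophil attractant. It had 10370, 9970 and 11112 exon reads in the shCtrl libraries and 2107, 2074 and 2187 in the shNFKBIZ libraries. The groups were far apart, with little spread within shNFKBIZ. The exon log2 fold change was -2.32 (SE 0.0660, adjusted p = 1.2e-09), the 78th lowest of all genes tested.

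CXCL1, also called GROα, stood at 5555, 4935 and 5949 exon reads in the shCtrl libraries and at 1445, 1509 and 1522 in shNFKBIZ. All shCtrl libraries were above all shNFKBIZ libraries, and the shCtrl libraries varied more. The exon log2 fold change was -1.89 (SE 0.112, adjusted p = 5.61e-05).

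CXCL2 (GROβ) gave 1173, 1121 and 1288 exon reads across the shCtrl libraries, and 490, 518 and 541 across the shNFKBIZ libraries. It kept the largest share of its control level of the 5 genes, 45.1% of the mean shCtrl TPM. The exon log2 fold change was -1.23 (SE 0.0716, adjusted p = 1.23e-10).

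CXCL3 (GROγ) was the least abundant of the 5, with exon reads of 414, 419 and 462 in shCtrl and of 92, 113 and 95 in shNFKBIZ. The exon log2 fold change was -2.12 (SE 0.101, adjusted p = 5.35e-14). CXCL1, CXCL2 and CXCL3 are close copies of one another, so reads could be shared between them. Reads that mapped to 1 place made up 97.3% or more of the exon reads of each of the 3 genes in every library, and unique reads gave the same calls.

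CCL20, also called MIP-3α, attracts dendritic cells and lymphocytes rather than neutrophils. Its exon reads were 3515, 3562 and 3624 in shCtrl and 657, 734 and 715 in shNFKBIZ. The exon log2 fold change was -2.36 (SE 0.0489, adjusted p = 4.19e-20), the 72nd lowest of all genes tested.

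CXCL5 (ENA-78), CXCL6 (GCP-2) and PPBP, the precursor of the platelet chemokine NAP-2, were close to absent. For CXCL5, 4, 6 and 2 exon reads were counted in shCtrl against 1, 2 and 1 in shNFKBIZ, a ratio of shNFKBIZ to shCtrl, scaled for library size, of 0.351 (95% exact interval 0.0826 to 1.16, counting error only). CXCL6 had 0, 3 and 1 exon reads against 0, 0 and 1, a ratio of 0.263 (0.00535 to 2.66). PPBP had 1 read in 1 shCtrl library and 0 in the others, at or below the floor of 3 reads, so no fold was computed. A change was not detectable for these 3 genes at this depth, although CXCL5 and CXCL6 held the GGAATTTCC match. Gene models that overlap PPBP and CXCL5 had 0 exon reads.

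Levels between genes were compared as TPM, which divide exon reads by exon length and scale each library to the same total. In shCtrl, CXCL8 was at 663 ± 74.3 TPM (SD, n = 3), CXCL1 at 659 ± 96.8, CCL20 at 366 ± 25.1, CXCL2 at 139.8 ± 18.0 and CXCL3 at 31.8 ± 3.71. CXCL8 and CXCL1 overlapped there, from 599 to 744 TPM and from 564 to 757 TPM, and the other neighbours in this order did not overlap. In shNFKBIZ, CXCL1 was at 187 ± 5.77 TPM, CXCL8 at 140.1 ± 1.67, CCL20 at 75.3 ± 4.85, CXCL2 at 63.1 ± 2.84 and CXCL3 at 7.71 ± 0.993, with no overlap between neighbours. In TPM, CXCL1 thus came to lie above CXCL8, and the gap between CCL20 and CXCL2 narrowed. In exon reads, CXCL8 stayed above CXCL1 in every shNFKBIZ library. The annotated exons of CXCL3 cover the whole 2219 bases of the gene, so its TPM is divided by more bases than a spliced CXCL3 transcript holds. The other lengths, also over all annotated exons, were 2588 bases for CXCL8, 1594 for CCL20, 1398 for CXCL2 and 1362 for CXCL1. The order of the genes by TPM, and the shares below, depend on these lengths.

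**Figure D1:**
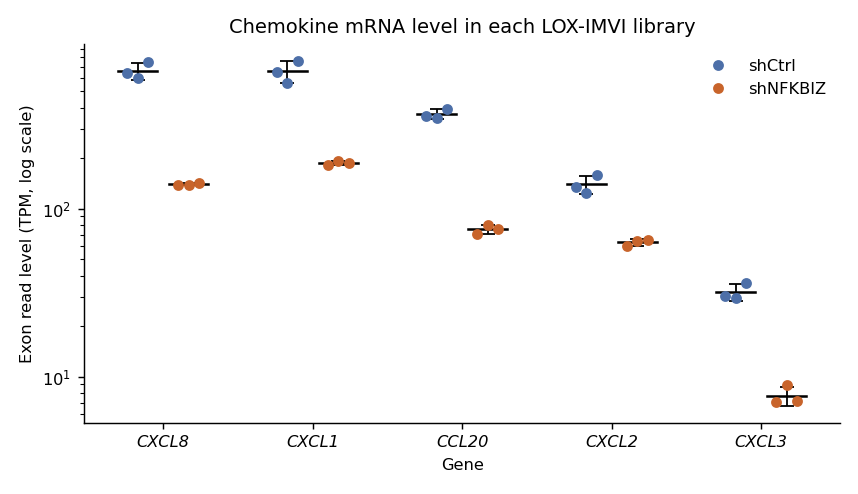
Exon read level in TPM (log axis) of the 5 measured chemokines in each library, with blue points for shCtrl and orange points for shNFKBIZ. Black lines mark the mean and error bars the SD of 3 libraries. For every gene the shNFKBIZ points lie below the shCtrl points, and CXCL8 and CXCL1, level with each other in shCtrl, are separated in shNFKBIZ.

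Summed over the 8 genes, the chemokines reached 1859 ± 216 TPM in shCtrl and 474 ± 14.4 TPM in shNFKBIZ, or 0.186% and 0.0474% of all TPM. The make-up of this pool moved with the group. CXCL8 made up 35.7% ± 0.297 of the pool in shCtrl and 29.6% ± 0.848 in shNFKBIZ, and CCL20 made up 19.7% ± 1.04 and 15.9% ± 0.562. CXCL1 went from 35.4% ± 1.32 to 39.5% ± 0.187, and CXCL2 from 7.51% ± 0.113 to 13.3% ± 0.272. CXCL3 held 1.71% ± 0.0587 and 1.63% ± 0.173.

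**Figure D2:**
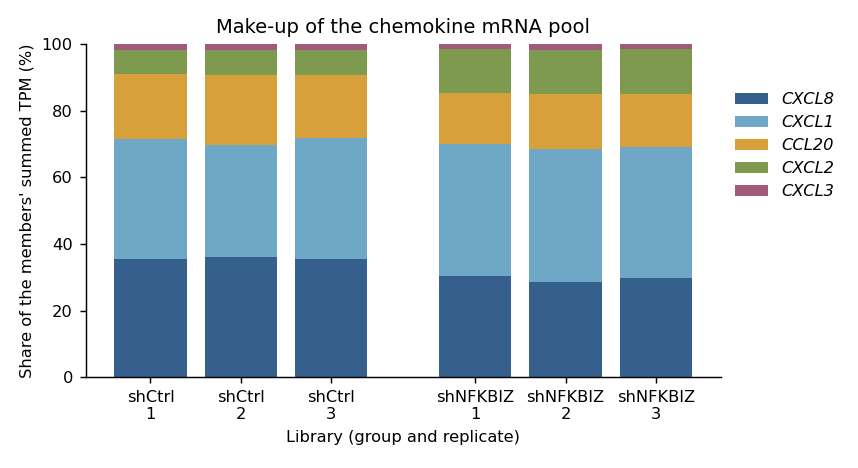
Share of the summed chemokine TPM (percent, from 0 to 100) held by each gene, 1 bar per library, with the 3 shCtrl libraries on the left and the 3 shNFKBIZ libraries on the right. The CXCL2 segment grows from a mean of 7.51% to 13.3%, and the CXCL8 and CCL20 segments shrink. CXCL5, CXCL6 and PPBP are too small to see and are not drawn.

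To compare the chromosome 4 genes with CCL20, the log2 ratio of exon reads of each gene to CCL20 was taken within each library and compared between groups with a two-sided exact permutation test, which cannot go below p = 0.1 with 3 libraries against 3. The CXCL8 to CCL20 ratio changed by 0.04 on the log2 scale (exact p = 0.5), and the 95% interval of the difference between their fitted changes was -0.12 to 0.20. The interval allows either gene to have fallen slightly more. Such intervals took the errors of both genes as independent, although both were read in the same libraries. They also assumed a normal distribution, which makes them narrow at 3 libraries per group, so a limit near 0 is not firm. The CXCL3 ratio changed by 0.24 (fitted interval 0.01 to 0.46), the CXCL1 ratio by 0.47 (0.23 to 0.71) and the CXCL2 ratio by 1.14 (0.96 to 1.30), each with no overlap between groups and an exact p = 0.1, the smallest possible. Relative to CCL20, CXCL2 was thus kept most. Among all 10 pairs of the 5 genes, 8 had the smallest possible p, and their Benjamini-Hochberg adjusted p was 0.125. Separation of the groups was common, since 68.7% of all genes tested did not overlap between groups in CPM. No such share was computed for ratios of other gene pairs. Within the cluster, the CXCL2 to CXCL8 ratio changed by 1.10, CXCL2 to CXCL1 by 0.67, CXCL3 to CXCL2 by -0.90, CXCL1 to CXCL8 by 0.43 and CXCL3 to CXCL8 by 0.19, and the CXCL3 to CXCL1 ratio changed by -0.24 with overlapping groups (exact p = 0.2). CXCL2 and CXCL8 lie at opposite ends of the cluster, and CXCL8 and CCL20 on different chromosomes.

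These ratios depended on counting exon reads. With exon and intron reads summed, the ratios to CCL20 changed by -0.51 for CXCL8, -0.056 for CXCL1, -0.32 for CXCL3 and 0.64 for CXCL2. The summed reads include the CCL20 intron reads given next.

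Intron changes could be measured for CCL20 and for 3 of the 7 cluster genes, CXCL8, CXCL2 and CXCL1, and were not tested against each other. CCL20 had 535, 475 and 531 intron reads in shCtrl and 431, 529 and 478 in shNFKBIZ, and the groups overlapped. The intron log2 fold change was -0.19 (SE 0.0726, 95% interval -0.33 to -0.05, adjusted p = 0.0332). That adjusted p ranged from 0.00463 to 0.198 when 1 library was left out, and was 0.144 without TMM scaling and 0.113 with DESeq2.

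CXCL8 introns had 82, 63 and 106 reads in shCtrl and 25, 27 and 21 in shNFKBIZ (intron log2 fold change -1.87, SE 0.204, adjusted p = 3.01e-09). This was the 1 intron call among the members, and 3.89% of the 12119 genes tested were called lower in introns. CXCL2 introns had 115, 118 and 119 reads against 58, 82 and 76 (intron log2 fold change -0.79, SE 0.132, adjusted p = 7.36e-06). CXCL1 introns had 59, 68 and 90 reads against 58, 51 and 31 (intron log2 fold change -0.72, SE 0.196, adjusted p = 0.00433). Both were under the 2-fold limit, and the lowest shCtrl count of CXCL1 (59) was next to its highest shNFKBIZ count (58). CXCL3 has no annotated intron bases and could not be measured this way, and CXCL6 had 1 intron read in all.

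The difference between exon and intron change was tested in 1 model over both kinds of reads, with each library as a block. For CCL20 the exon change minus the intron change was -2.17 on the log2 scale (SE 0.0741, adjusted p = 5.02e-48), the fourth lowest of 11025 genes, after CRYBG1 (-2.72), APH1A (-2.67) and TDO2 (-2.28), which were looked up after the rank was known. Over all genes tested this difference had a median of -0.02 and a 5th to 95th percentile range of -0.70 to 0.63. CXCL1 had a difference of -1.17 (SE 0.177, adjusted p = 1.06e-07) and CXCL2 one of -0.43 (SE 0.140, adjusted p = 0.0141). CXCL8 was at -0.45 (SE 0.201, adjusted p = 0.0821) and did not pass. Of the 4 members tested, 3 passed with the exon falling by more, against 16.5% of all genes tested. The CXCL2 call was lost without shCtrl replicate 3 (-0.36, adjusted p = 0.0707), shNFKBIZ replicate 2 (-0.35, adjusted p = 0.107) or shNFKBIZ replicate 3 (-0.41, adjusted p = 0.0566), and CXCL8 passed without shCtrl replicate 3 (-0.59, adjusted p = 0.0392).

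Expressed per library, CCL20 had 6.57 to 7.50 exon reads per intron read in shCtrl and 1.39 to 1.52 in shNFKBIZ, means of 6.96 ± 0.480 and 1.47 ± 0.0722. Intron reads made up 11.8% to 13.2% of CCL20 reads in shCtrl and 39.6% to 41.9% in shNFKBIZ, while over all genes the share stayed between 7.16% and 8.15% in the 6 libraries. The ratio for CXCL8 was 130 ± 26.9 in shCtrl and 88.4 ± 14.1 in shNFKBIZ, for CXCL1 77.6 ± 14.7 and 34.5 ± 12.8, and for CXCL2 10.2 ± 0.662 and 7.29 ± 1.08. CXCL8, CXCL1 and CXCL2 have 610, 554 and 759 intron bases, against 10232 for CCL20, so the ratios compare groups and not genes. Of the 10232 intron bases of CCL20, 7852 (76.7%) formed 1 stretch, chr2:227805970-227813821, between an alternative upstream first exon and the exon that holds the RefSeq start. The tables give 1 intron count per gene, so which intron the reads came from, and whether they belong to the same transcripts as the exon reads, was not tested. No other annotated gene overlapped CCL20. Reads across splice junctions, 24.5% to 29.3% of its exon reads, gave an exon log2 fold change of -2.51 for CCL20.

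**Figure D3:**
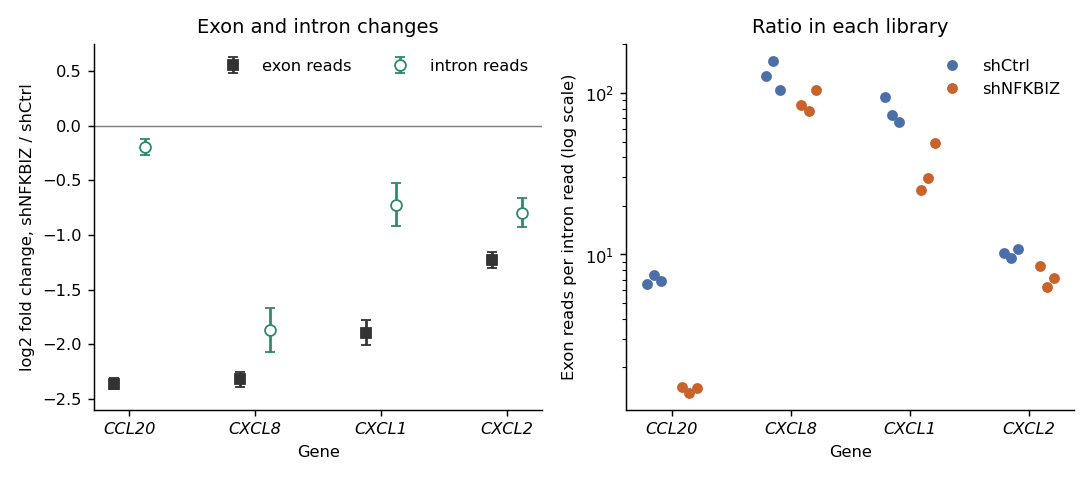
Left, log2 fold change (shNFKBIZ over shCtrl) with SE for exon reads (black squares) and intron reads (green circles) of the 4 chemokines with both. Right, exon reads per intron read in each library (log axis). CCL20 has the widest gap on the left, -2.36 against -0.19, and on the right its shNFKBIZ libraries, at 1.39 to 1.52, lie well below its shCtrl libraries, at 6.57 to 7.50.

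Neighbouring genes within 200 kb were examined on both sides. Around the cluster, 13 genes other than the members were listed and 6 of them had no exon reads. MTHFD2L, a mitochondrial folate enzyme gene next to CXCL2, had an exon log2 fold change of -0.32 (SE 0.0622, adjusted p = 0.000123), under the 2-fold limit. A lncRNA on the other flank, ENSG00000289530, was called lower at -2.14 (SE 0.424, adjusted p = 0.00014) on 13, 18 and 14 reads against 5, 2 and 3. These 2 neighbours were the only ones tested. UMLILO, another lncRNA on that flank, was too low to test. It had 0, 1 and 1 exon reads in shCtrl against 1, 2 and 1 in shNFKBIZ, and 19 intron reads in all against 17. PF4 and PF4V1, platelet chemokine genes inside the cluster, had 0 reads in all libraries.

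Around CCL20, 13 genes were listed, 10 had no exon reads and 2 were tested. DAW1, a dynein assembly factor gene 53.5 kb away, fell from 95, 109 and 87 exon reads to 19, 16 and 14 (exon log2 fold change -2.57, SE 0.198, adjusted p = 1.9e-10). Its intron reads fell too, by 2.20 on the log2 scale (SE 0.249, adjusted p = 4.07e-09), from 156 reads in all to 36. Whether this differed from CCL20 was not tested. SLC19A3, a thiamine transporter gene 87.7 kb away, was at -0.58 (SE 0.302, adjusted p = 0.0965).

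**Figure D4:**
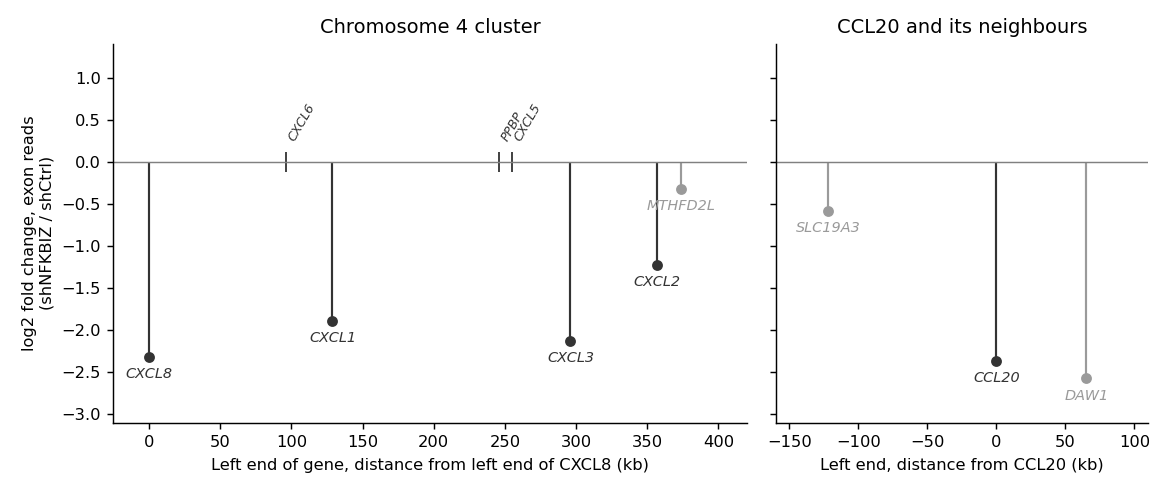
Exon log2 fold change (shNFKBIZ over shCtrl) against the position of each gene's left end, in kb from the left end of CXCL8 (left) or CCL20 (right). Black marks the chemokines and gray the protein-coding neighbours tested, and ticks at 0 mark CXCL6, PPBP and CXCL5, which were too low to test. The 4 measured cluster genes range from -2.32 for CXCL8 to -1.23 for CXCL2, and MTHFD2L beside CXCL2 lies at -0.32.

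The receptors and decoys of these chemokines, CXCR1, CXCR2, CCR6 and ACKR1, had 0 exon reads in all 6 libraries, where up to 3 reads would be compatible with a count of 0. Of 13 cytokines and receptors that induce such chemokines, 8 were tested, 3 were called lower and 1 higher, with a median log2 fold change of -0.66. Over all 13843 genes tested, 5.12% were called lower, 3.84% were called higher and the median was 0.00. IL1B fell from 1620 ± 102 to 55.1 ± 3.44 TPM (log2 fold change -4.96, SE 0.0465, adjusted p = 3.54e-26) and IL1A from 980 ± 75.3 to 291 ± 5.51 TPM (-1.83). IL1RAP, the shared co-receptor of the IL-1 family, was at -1.01 (adjusted p = 1.91e-10), and IL17RE, a receptor chain for IL-17C, was called higher on few reads (0.379 ± 0.140 against 0.820 ± 0.343 TPM, adjusted p = 0.0190). IL1RAP and IL17RE lay at the 2-fold limit, and the 4 calls became 3 with library size alone or unique reads and 2 without shNFKBIZ replicate 1.

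Of 21 transcription factors and co-regulators of chemokine genes, 20 were tested and 5 were called lower, with none higher and a median log2 fold change of -0.29, beside 5.12% lower and 3.84% higher over all genes tested. BCL3, a nuclear IκB protein like IκBζ, was at -2.50 (SE 0.0829, adjusted p = 9.95e-17). CEBPD (-1.11), ATF3 (-1.03), NFKB2 (-1.01) and NFKBIZ were the others. NFKBIZ was the target of the hairpin, so its place in the count and the median was set by the design. FOSL1, an AP-1 subunit, had the largest value at 0.73 (SE 0.0326). Of the 6 NF-κB feedback genes, which include inhibitors that NF-κB induces, TNIP1 (-1.04) and BIRC3 (-1.01) were called lower, NFKBIE was at -0.12 (adjusted p = 0.198) and the median was -0.75. NFKB2, TNIP1, BIRC3 and ATF3 lay close to the 2-fold limit.

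All 13 factors that bind or degrade chemokine mRNA were tested, and 1 was called higher and 0 lower, with a median log2 fold change of -0.01. ZFP36L1, which promotes decay of AU-rich mRNAs, was called higher (1.05, SE 0.0339, adjusted p = 6.04e-17), and ZFP36, which encodes tristetraprolin, had the lowest value at -0.96 (SE 0.0871, adjusted p = 2.64e-09), under the 2-fold limit. Of 7 proteases that trim ELR chemokines, 3 were tested, and 2 were called higher and 0 lower. Over all genes tested, 3.84% were called higher and 5.12% lower. MMP9, which truncates CXCL8 to a more active form, rose from 10.7 ± 1.85 to 62.9 ± 6.84 TPM (2.48, SE 0.0952, adjusted p = 4.25e-13), MMP1 rose by 1.22 (SE 0.0796, adjusted p = 1.09e-11), and MMP2 was at 0.40.

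The genes with the profile most like the mean of the 5 measured chemokines, by the Euclidean distance of log2 CPM centred on each gene's mean over the 6 libraries, were SMIM3 (distance 0.154), FAM171B (0.200), IDH1 (0.200), PIK3CB (0.207) and IL1A (0.211), of 11487 candidates. Their exon log2 fold changes lay between -2.07 and -1.83. The members themselves lay at 0.151 (CXCL1), 0.234 (CXCL3), 0.428 (CXCL8), 0.477 (CCL20) and 0.931 (CXCL2). Each member is part of the mean it was compared with, which lowers its distance. The 5 genes were picked for their small distance, so their distances are a description only.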

How the data were processed

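Total RNA of LOX-IMVI cells was sequenced in 3 shCtrl and 3 shNFKBIZ libraries, grouped by sample title. According to the study's methods, the reads were mapped to hg38 with CLC Genomics Workbench at its defaults, with no use of strand. The authors deposited 1 table per library, which holds raw counts (whole fragments) over the exons and introns of each gene. Reads of antisense genes can therefore fall on either gene. Total counts include fragments with several matches.

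TPM were computed anew by dividing total exon counts by exon length. Total exon counts and, in a second fit, total intron counts were tested after filterByExpr and TMM scaling in edgeR 4.0.16 on R 4.3.3 (robust quasi-likelihood F test, two-sided), adjusted by Benjamini-Hochberg over all genes tested. SE is the log2 fold change divided by the square root of F. Intervals of fitted changes were taken from the SE with a normal distribution. Calls required a 2-fold change or more and an adjusted p up to 0.05, or for the exon minus intron difference that p alone. Within-library log2 ratios used a pseudocount of 0.5. The scripts were tested on simulated data.

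All members and NFKBIZ are named, with every called gene of a list and its extremes, each tested protein-coding neighbour, and the 5 genes of at least 50 mean reads nearest in profile. The members, lists and tests were chosen with earlier results of these data known. Junction reads as an alternative, the lncRNA neighbours and the motif counts were added after seeing the data. Alternatives were RLE factors, library size alone, other count filters, DESeq2 1.42.0, unique or total gene reads, a replicate block and leaving out each library. For exon calls, adjusted p alone and an added difference in mean TPM were also used. Where libraries share a culture, p-values measure technical spread.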

Additional observations from a re-analysis of the deposited data

How the results depend on the processing

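The exon calls of CCL20, CXCL8, CXCL1, CXCL2, CXCL3 and NFKBIZ kept their direction and their side of the threshold under all 17 alternatives. CCL20 ranged from -2.51 (junction reads, chosen after seeing the data) to -1.82 and CXCL2 from -1.29 to -1.14. Adjusted p alone and an added mean TPM difference above 4 changed only the rule for a call, and the former could not lose a call. With total gene reads, the changes relative to CCL20 became -0.51 for CXCL8, -0.056 for CXCL1, -0.32 for CXCL3 and 0.64 for CXCL2. Library size alone, which moved the median of all genes to 0.09, left 3 transcription factors and 0 feedback genes called. Leaving out 1 library gave 1 to 2 called feedback genes (1 without shCtrl replicate 1), 3 to 6 transcription factors (3 without shCtrl replicate 2), and, without shNFKBIZ replicate 1, 2 called inducing cytokines and receptors (range 2 to 4) and 2 factors acting on mRNA (range 1 to 2). The CXCL2 and CXCL8 exon minus intron calls that changed stand beside their values. Replicate numbers did not pair the libraries (correlations of same-numbered deviations -0.0335, 0.00570 and 0.0663), and with the replicate block no member call changed: 5 members stayed called in exons and 1 in introns. The exon minus intron model already held each library as a block, so no further replicate block could be added there. Depth limits CXCL5, CXCL6 and PPBP.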

Other observations

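Outside the chemokines, 54 tested genes had GGAATTTCC in the RefSeq promoter. Of these, 6 (11.1%) were called lower and 0 higher in exon reads by edgeR, with a median log2 fold change of -0.17. Among all 10239 tested genes with a promoter sequence, 487 (4.76%) were called lower and 332 higher. For the looser GGGNNTTTCC, 16 of 290 genes (5.52%) were called lower and 7 higher, with a median of -0.01. The motifs were chosen after seeing the data, and the difference between these shares was not tested.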
